A study of Rattus norvegicus with 4 samples.

Results

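The 10 genes described here encode 6 ligands of the epidermal growth factor (EGF) family (Areg, Ereg, Btc, Hbegf, Tgfa and Nrg1), 3 of the ERBB receptors they bind (Egfr, Erbb2 and Erbb3), and Errfi1, an inhibitor of these receptors. They were taken as every probe set with 1 of these symbols as its only gene symbol in the platform annotation, 20 probe sets for 10 of the 14217 named genes on the array. RNA came from Sertoli cells, the somatic nurse cells of the seminiferous tubule, of 20-day-old male Sprague-Dawley rats. The cells were kept in serum-free Ham's F-12 medium with bovine serum albumin at 72 h of culture, 2 arrays of untreated control cells and 2 of cells given cAMP. The labels state neither which form of cAMP was used nor its dose. They call the replicates biological without saying whether these came from separate preparations, so the p-values reflect only the spread among these arrays, part of which may be technical.

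EGF family ligands are made as membrane-bound precursors, and proteases called sheddases cut them free. A freed ligand joins a pair of ERBB receptors, which phosphorylate each other and recruit adaptors that start the RAS, RAF, MEK and ERK kinase cascade and the PI3K and STAT pathways. ERBB2 binds no known ligand itself and acts as a partner of the other receptors, and ERBB3 has little kinase activity of its own. In the ovarian follicle, luteinising hormone acts through cAMP to raise Areg, Ereg and Btc. Follicle-stimulating hormone acts on Sertoli cells through cAMP as well.

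Values are probe set signals on the authors' linear scale. Background was set at 14.2, the highest signal that any of the 27 Bacillus control probe sets reached on an array. Differences are cAMP minus control on the log2(signal + 16) scale, given ± the standard error of limma, and understate the change of dim genes. Probe sets whose 4-array mean reached the 40th percentile, equal to a signal of 18.3, were tested, and rose or fell refer to an adjusted p by limma below 0.05 over all 18625 probe sets tested. The number of arrays, 2 in each group, limits the precision. On each array 64.3% to 66.4% of the probe sets exceeded that background. The ratio of the 3' to the 5' actin control signal was 1.80 and 2.25 in control cells, against 1.86 and 1.65 with cAMP. All 12 Sertoli cell markers with a probe set were above background on at least 1 array, among them Cldn11 at 4821.4 to 5781.8 and Clu at 6071.5 to 7277.8. Of the 11 tested, 3 rose (Inha, Shbg and Dhh), 1 fell (Gata4) and the others did not pass. Inha gave 951.6 and 1242.8 in control cells against 4344.6 and 4732.6 with cAMP, and Gata4 1290.4 and 1232.8 against 647.6 and 649. Rhox5, above background on 2 arrays, was not tested. Of the 6 germ cell markers with a probe set, 3 were above background on all 4 arrays, namely Sycp3 at 1753.6 to 2339.6, Tex101 at 459 to 706.1 and Sycp1 at 72.6 to 105.7. Kit was above it on 2 arrays, and Tnp1 and Prm1 of late germ cells on none. Of the 6 Leydig cell markers, Cyp11a1 exceeded background on all 4 arrays (40.6 to 50.9), Hsd17b3 on 3 and Insl3 on 1, while Lhcgr, Cyp17a1 and Hsd3b1 never did.

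Most of the family gave little signal in these cells, with or without cAMP. Of the 20 probe sets, 9 were at or below background on all 4 arrays, 6 of them of Nrg1, and 4 were above it on all 4. By gene, 9 of the 10 had a probe set above background on at least 1 array. On single arrays 64.3% to 66.4% of all probe sets exceeded background, and the share on all 4 was not counted. Only Tgfa, Hbegf, Erbb2 and Errfi1 passed the filter and were tested, 4 of 10 genes, where 10035 of all 14217 named genes were tested. Of these 4 genes 1 fell (Hbegf), 0 rose by limma and 3 did not pass, where 7.14% of the 10035 tested named genes fell and 8.27% rose. At an unadjusted p below 0.05, 3 of the 4 were lower and 0 higher, where 15.2% of the tested named genes were lower and 14.9% higher. In each of the 4 the cAMP arrays lay beyond both control arrays, a pattern shown by 61.3% of the tested named genes. None of the other 12 fits called a member higher.

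**Figure D1:**
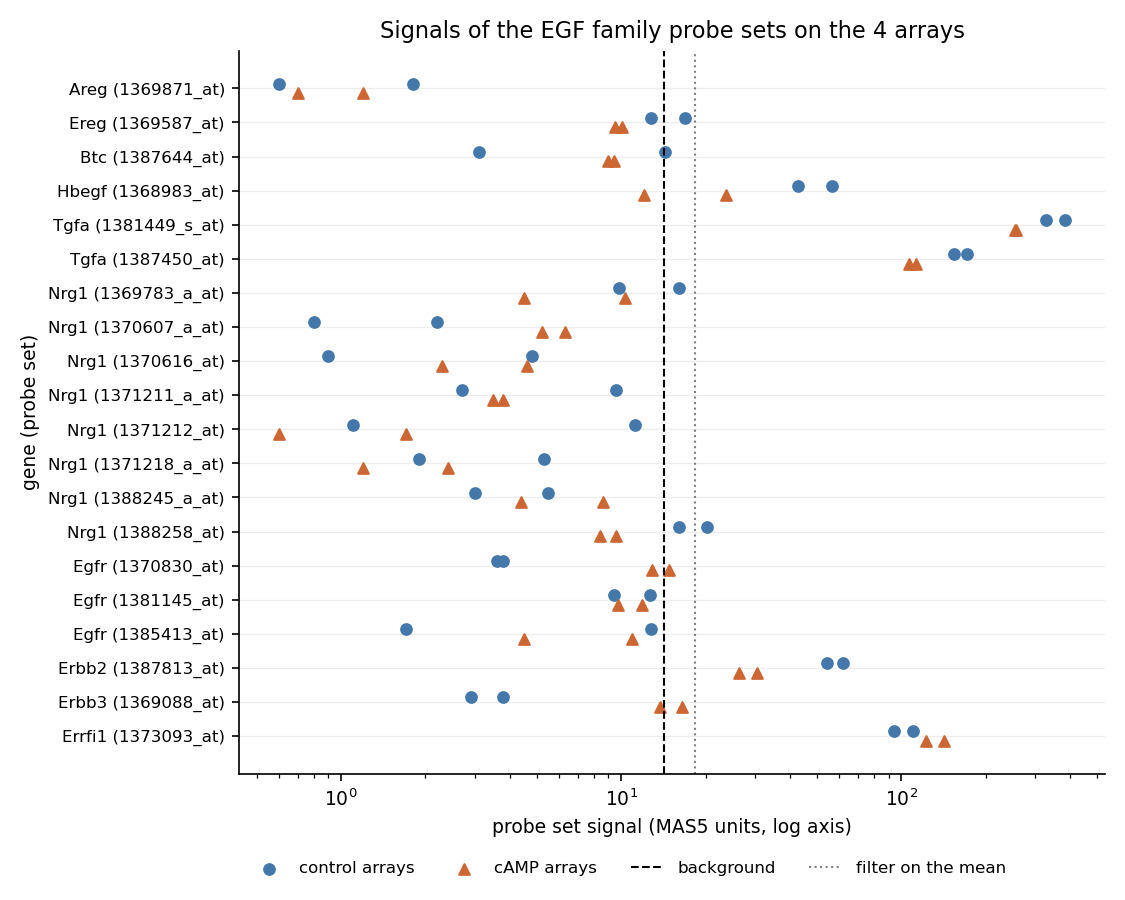
Signal of each of the 20 probe sets (log axis) on the 2 control arrays (circles) and the 2 cAMP arrays (triangles), with the background of 14.2 (dashed line) and the signal of 18.3 that the filter on the mean corresponds to (dotted line). Both Tgfa probe sets, Erbb2 and Errfi1 lie to the right of both lines on all 4 arrays, and Hbegf on 3.

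Hbegf encodes heparin-binding EGF-like growth factor, a ligand of EGFR and ERBB4. Its signal was 56.6 and 42.8 in control cells against 23.6 and 12.1 with cAMP. Both control arrays were above both cAMP arrays, and the lower cAMP value was under background, so the size of the change is uncertain. Hbegf fell by 0.97 ± 0.25 on the log2 scale (adjusted p by limma = 0.0446, unadjusted 95% interval -1.56 to -0.38), with group means of 49.7 ± 9.76 and 17.9 ± 8.13 (SD, n = 2 arrays each). The call lay close to the threshold and was made in 5 of the other 11 fits that tested the gene. Leaving out control replicate 1 (log2 difference -0.82), cAMP replicate 1 (-1.22) or cAMP replicate 2 (-0.72) ended it, and leaving out control replicate 2 (-1.12) did not. With either cAMP array left out far fewer of all tested probe sets were called, so a call lost there is not particular to that gene. Without control replicate 1, in contrast, far more of all tested probe sets were called, while Hbegf did not pass.

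Hbegf is also made by cells other than Sertoli cells, and markers of some of those moved between the groups. The summed signal of 7 peritubular myoid markers was 614 and 460.8 in control cells against 181.7 and 221.1 with cAMP, where Tagln and Synpo2 fell, Des rose and 2 more of the 5 tested did not pass. The sum moved mostly through Tagln, at 344.5 and 264.3 against 1.3 and 7.4. The other 6 markers summed to 269.5 and 196.5 against 180.4 and 213.7, which overlap, as did Acta2 at 109.6 and 60.6 against 67.1 and 73.2. The sum of 5 endothelial markers was 236.9 and 160.1 against 97.1 and 98.5, mostly through Kdr, which fell (-1.23). Tek, above background on all 4 arrays, gave 24.9 and 17.4 against 25.2 and 17.1 and did not pass. Pecam1, Vwf and Tie1 were at or below background on all 4 arrays. The sum of 7 macrophage markers was 115.1 and 170.2 against 110.5 and 156.4, with 5 of the 7 above background on at least 1 array and Ptprc and Cd163 on none. Cd14, Aif1 and Lyz2 exceeded it on all 4 arrays. Lyz2, at 47.3 and 108.6 against 26.4 and 27.6, did not pass (adjusted p by limma = 0.0751). Cd68 gave 4.1 and 6.2 against 28.1 and 45.2 but was not tested, as its 4-array mean was at the 38.8th percentile; without the filter it was called higher (adjusted p by limma = 0.0451). The part of other cells in the Hbegf result was not tested. In bulk RNA, fewer cells of a type and less RNA per cell cannot be told apart.

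Tgfa encodes transforming growth factor alpha, a ligand of EGFR, and has 2 probe sets. The first (1381449_s_at) gave 384.5 and 327.8 in control cells against 255.9 and 253.9 with cAMP. The second (1387450_at) gave 171 and 154.1 against 112.9 and 106.6. Both probe sets were lower on both cAMP arrays than on either control array, and all 8 signals were well above background. Their log2 differences were -0.45 ± 0.15 (adjusted p by limma = 0.100, unadjusted 95% interval -0.81 to -0.09) and -0.50 ± 0.17 (adjusted p = 0.0968, interval -0.90 to -0.11), so neither passed. Without control replicate 2 the first did (adjusted p = 0.0410).

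Areg (amphiregulin), Ereg (epiregulin) and Btc (betacellulin), the ligands that cAMP raises in the ovarian follicle, gave signals near or under background in both groups. In the RefSeq gene order the protein-coding genes Btc, Areg, Ereg and Epgn follow one another. Areg lay at 1.8 and 0.6 in control cells against 1.2 and 0.7 with cAMP, far under background on every array. Ereg gave 12.8 and 16.9 without cAMP and 10.1 and 9.5 with it, so 1 of 4 arrays was above background and the cAMP arrays were the lower ones. Btc gave 3.1 and 14.3 against 9 and 9.4, with the cAMP arrays between the controls. All 3 lay below the filter. Fitted without the filter, none passed (adjusted p by limma of 0.953 for Areg, 0.547 for Ereg and 0.927 for Btc). A signal at background does not show that a transcript is absent.

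The start region of Areg is shown because it holds the sequence that the cAMP-activated factor CREB is known to bind. RefSeq promoter windows, which run from 250 bases before a gene's start to 50 after it, were at hand for 7 of the 10 genes, the others being Ereg, Nrg1 and Erbb3. Each was searched on both strands for the full CRE (TGACGTCA), the short CRE (TGACG, also part of the full CRE), AP-1 (TGANTCA), the GC box (GGGCGG), the E-box (CACGTG) and the TATA box (TATAAA). The full CRE was found in 1 of the 7, Areg, 91 bases before the start, and in 1.83% of all 33469 promoter windows. A match is a run of letters, not a shown binding site. The window lies at chr14:17265592-17265891 of GRCr8, minus strand, and capitals mark the full CRE, the GC box and the TATA box, in that order:
Areg: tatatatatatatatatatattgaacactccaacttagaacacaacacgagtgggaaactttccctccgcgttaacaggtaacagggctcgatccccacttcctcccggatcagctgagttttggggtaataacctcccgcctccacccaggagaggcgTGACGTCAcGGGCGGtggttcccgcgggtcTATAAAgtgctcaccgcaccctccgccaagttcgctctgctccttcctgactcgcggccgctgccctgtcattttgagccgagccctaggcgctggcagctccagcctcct

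Nrg1 encodes neuregulin 1, a ligand of ERBB3 and ERBB4 with many isoforms, and had 8 probe sets. Of these, 6 were at or below background on all 4 arrays. The probe set with the highest mean (1388258_at) gave 16.1 and 20.2 in control cells against 9.6 and 8.4 with cAMP, at least 1.27-fold lower with cAMP when the cAMP values were raised to background. It was not tested in the filtered fit, and without the filter it did not pass (-0.45 ± 0.20, adjusted p by limma = 0.289). The other one above background on an array (1369783_a_at) gave 9.8 and 16.1 against 4.5 and 10.3, and these groups overlapped.

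Of the 3 receptors Erbb2 alone was tested. Erbb2 signal was 54.4 and 61.6 in control cells against 30.4 and 26.3 with cAMP. All 4 values were above background, the groups did not overlap, and the control mean of 58.0 ± 5.09 was 2.05 times the cAMP mean of 28.4 ± 2.90 (SD, n = 2 arrays each). The log2 difference was -0.74 ± 0.20 (unadjusted 95% interval -1.21 to -0.27), and its adjusted p by limma of 0.0514 just missed the threshold. It passed in 5 of the other 11 fits that tested it, among them the replicate block (adjusted p = 0.0454). Another of these dropped control replicate 1 and gave -0.81. Far more of all tested probe sets were called in that fit, so the call there is not particular to Erbb2. Dropping any other array gave differences from -0.81 to -0.67, and Erbb2 did not pass. Far fewer of all tested probe sets were called when the dropped array was a cAMP one.

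The Erbb2 window is shown as that of the receptor gene that was tested, whose signal was lower with cAMP but did not pass. It held neither form of the CRE, no AP-1, E-box or TATA box letters, and 1 GC box (capitals), which 33.1% of all windows and 6 of the 7 members' windows hold. It lies at chr10:83907351-83907650 of GRCr8, plus strand:
Erbb2: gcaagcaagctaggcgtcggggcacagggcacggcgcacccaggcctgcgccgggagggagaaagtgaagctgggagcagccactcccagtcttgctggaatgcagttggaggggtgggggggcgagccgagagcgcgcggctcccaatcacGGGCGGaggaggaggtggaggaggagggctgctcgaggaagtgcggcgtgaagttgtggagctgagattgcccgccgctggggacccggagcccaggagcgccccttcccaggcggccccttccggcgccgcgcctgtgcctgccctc

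Egfr encodes the receptor for EGF, TGF-alpha and amphiregulin, and its 3 probe sets differed. One (1370830_at) gave 3.8 and 3.6 in control cells against 14.8 and 12.9 with cAMP, above background on 1 of the 4. Another (1381145_at), the one with the highest mean, gave 12.7 and 9.4 against 9.7 and 11.9, and the third (1385413_at) 12.8 and 1.7 against 10.9 and 4.5, all under background with overlapping groups. Fitted without the filter, the first differed by 0.60 ± 0.16 (adjusted p by limma = 0.113) and the second by -0.01 ± 0.19 (adjusted p = 0.984), so the probe sets gave no common direction. Erbb3 lay at 3.8 and 2.9 without cAMP and at 13.8 and 16.5 with it. Its cAMP arrays were the higher ones but straddled background. The difference was 1.06-fold when the control values were raised to background, so the size of the change is uncertain. Without the filter Erbb3 did not pass (0.69 ± 0.17, adjusted p by limma = 0.0876).

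Errfi1, also called MIG6, encodes a cytoplasmic inhibitor that binds the kinase domain of activated ERBB receptors. Its signal was 110 and 93.7 in control cells against 141.5 and 122.5 with cAMP. All values were above background and the cAMP arrays were the higher ones. The log2 difference of 0.33 ± 0.18 did not pass (adjusted p by limma = 0.289), and its unadjusted 95% interval ran from -0.10 to 0.76. The Errfi1 window is shown because, with Areg, it was 1 of 3 members' windows with the short CRE, the third being Hbegf. The letters lay 56 bases before the start, on the reverse strand in Errfi1, and 193 bases before it in Hbegf, and 21.2% of all windows hold them. The window lies at chr5:166606591-166606890 of GRCr8, plus strand, and capitals mark the GC box, the short CRE and the TATA box, in that order:
Errfi1: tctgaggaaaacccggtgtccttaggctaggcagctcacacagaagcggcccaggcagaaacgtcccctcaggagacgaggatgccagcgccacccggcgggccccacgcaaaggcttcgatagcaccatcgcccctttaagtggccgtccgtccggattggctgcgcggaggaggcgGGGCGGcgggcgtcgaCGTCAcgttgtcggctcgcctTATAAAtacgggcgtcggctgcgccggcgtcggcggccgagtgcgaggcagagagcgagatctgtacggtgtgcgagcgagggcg

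AP-1 and E-box letters were in none of the 7 members' windows, and were in 7.33% and 6.42% of all windows. TATA box letters were in Areg and Errfi1 and in 14.2% of all windows. Of the 3 members with the short CRE, Hbegf fell, Errfi1 was higher but did not pass, and Areg was under background. Any link between these letters and the direction of a gene was not tested.

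**Figure D2:**
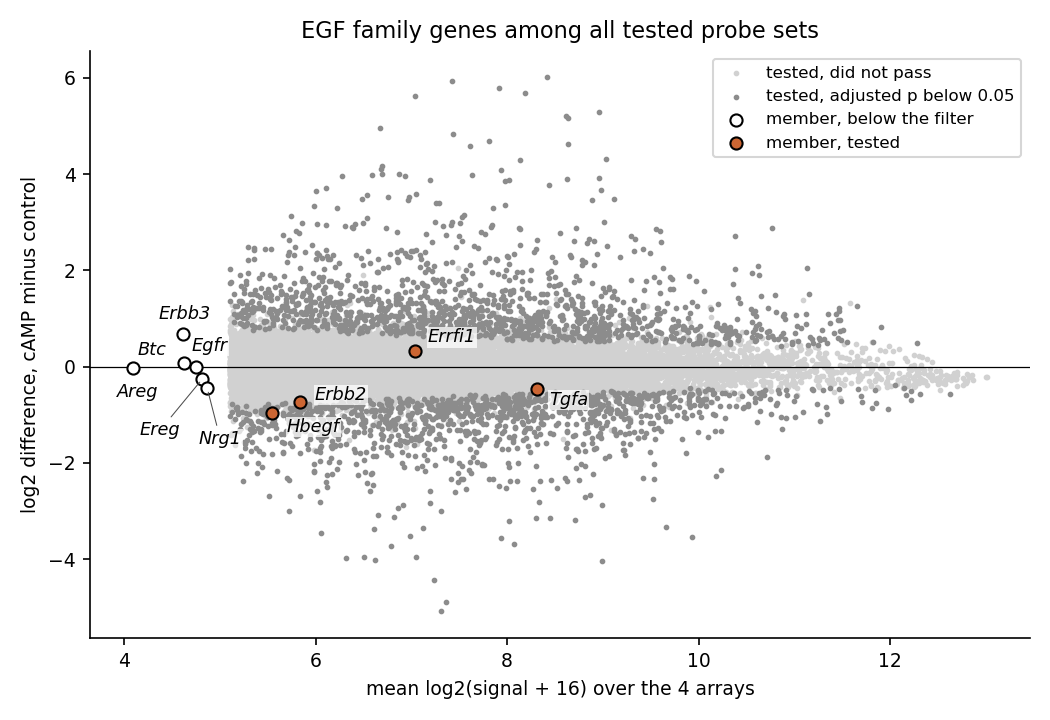
Log2 difference, cAMP minus control, against mean log2(signal + 16) over the 4 arrays for all 18625 tested probe sets (light grey did not pass, dark grey adjusted p below 0.05) and, for each member, its probe set with the highest mean (orange tested, white below the filter). Hbegf, at -0.97, sits at the inner edge of the called probe sets and Erbb2, at -0.74, just inside it.

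**Figure D3:**
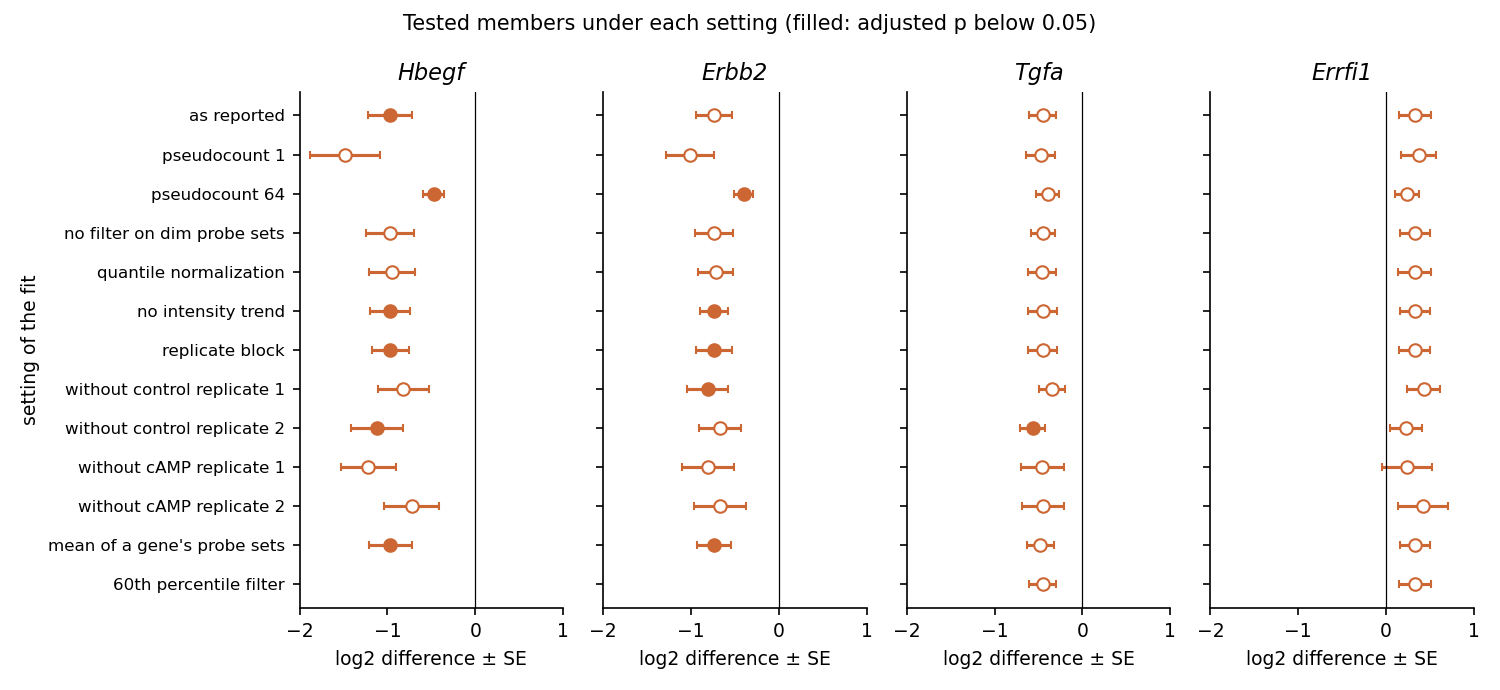
Log2 difference, cAMP minus control (points, with bars of 1 SE), of the 4 tested members in the fit as reported and under each other setting, filled where the adjusted p by limma was below 0.05. The direction was the same in every fit that tested the gene. Hbegf and Erbb2 crossed the threshold back and forth and did not enter the fit with the 60th percentile filter. Tgfa passed only without control replicate 2.

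The genes around the family were followed in 7 lists, 123 entries in all, of which 102 had a probe set and 83 were tested. Of the 83, 10 rose, 5 fell and 68 did not pass, 18.1% called, where 15.4% of all tested named genes were. Their median log2 difference was 0.14, and that of all tested named genes -0.03. Before adjustment, 20 of the 83 were higher and 12 lower at p below 0.05 by limma. Of all tested named genes 14.9% were higher and 15.2% lower at that threshold. Of the other EGF family genes, Egf and Nrg2 were tested and neither passed by limma (1 of 2 lower at an unadjusted p below 0.05). Egf, the founding ligand, gave 49.1 and 58.9 in control cells against 28.1 and 35.8 with cAMP (-0.55 ± 0.21, adjusted p = 0.137), and Nrg2 gave 20.4 and 9.5 against 24.2 and 21.9. Nrg4 and the receptor gene Erbb4 were at background on all 4 arrays.

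Among 10 tested genes of ligand shedding and processing, 1 fell, 1 rose and 8 did not pass (median 0.16). Before adjustment, 3 were higher and 2 lower at p below 0.05 by limma. The one that fell was Adam17, which encodes the main sheddase of TGF-alpha, HB-EGF and amphiregulin. Its signal was 295.5 and 320.7 without cAMP and 152.2 and 200.1 with it (-0.76 ± 0.18, adjusted p by limma = 0.0313). Cd9, a tetraspanin that associates with membrane-bound HB-EGF, rose from 206.3 and 144.5 to 308 and 532 (1.16 ± 0.27, adjusted p = 0.0332). Adam10, the sheddase of EGF and betacellulin, gave 37.9 and 45.3 against 61.6 and 72.8 and did not pass (0.53 ± 0.20, adjusted p = 0.133). Both calls were lost without control replicate 2 and without cAMP replicate 2, and that of Adam17 also without cAMP replicate 1.

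Among 17 tested adaptors and members of the RAS and ERK cascade, 2 fell, 0 rose by limma and 15 did not pass (median 0.19). At an unadjusted p below 0.05, 3 were higher and 3 lower. Gab1, a docking protein that carries ERBB signals to PI3K and SHP2, gave 872.5 and 933.4 in control cells against 311.6 and 345.6 with cAMP. It fell by 1.42 ± 0.14 on the log2 scale (adjusted p by limma = 0.000862) and passed in every fit. Nck2, an adaptor to the actin cytoskeleton, gave 612.9 and 602.6 against 411.2 and 378.6 (-0.60 ± 0.14, adjusted p = 0.0272), and was lost when either cAMP array was left out. A second tested Nck2 probe set, at 12 and 39.2 against 4.9 and 29.7, overlapped between the groups and did not pass (-0.35 ± 0.44, adjusted p = 0.659). The adaptor Grb2 (0.44 ± 0.15, adjusted p = 0.0953) and the MEK gene Map2k1 (0.81 ± 0.24, adjusted p = 0.0692) did not pass. Without control replicate 1 more genes of the list were called higher, as were more of all tested probe sets.

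Among 15 tested PI3K, phospholipase C and STAT effectors, 2 rose, 0 fell by limma and 13 did not pass (median 0.09). At an unadjusted p below 0.05, 4 were higher and 0 lower, where 14.9% and 15.2% of all tested named genes were. Pak1, a kinase downstream of RAC and CDC42, rose from 208.1 and 140.2 to 1154.6 and 1031.9 (2.57 ± 0.20, adjusted p by limma = 0.000339). Stat3, a transcription factor that ERBB receptors and cytokine receptors activate, rose from 222 and 366.7 to 881.3 and 999.9 (1.66 ± 0.23, adjusted p = 0.00378). A second tested probe set of each rose as well, that of Pak1 by 2.41 ± 0.20 and that of Stat3 by 1.42 ± 0.16, and both genes passed in every fit.

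Among 19 tested genes of receptor turnover and inhibition, 3 rose, 1 fell and 15 did not pass (median 0.17). Before adjustment, 4 were higher and 2 lower at p below 0.05 by limma. Lrig1, which encodes a membrane protein that promotes the degradation of ERBB receptors, fell from 186.9 and 169.7 to 63.7 and 57.5 (-1.34 ± 0.18, adjusted p by limma = 0.00318). The phosphatase gene Ptpn12 rose from 668.8 and 592.9 to 1118 and 1142.1 (0.83 ± 0.13, adjusted p = 0.00660). Sh3kbp1, an adaptor that links CBL to endocytosis of activated receptors, rose from 29.5 and 24.6 to 76.2 and 69.9 (1.05 ± 0.20), and the kinase gene Tnk2 from 305.6 and 284.9 to 490.3 and 442.3 (0.63 ± 0.14). The ubiquitin ligase gene Cbl itself gave 210.6 and 189.7 against 227.8 and 218.3 and did not pass. All 3 increases were lost when either cAMP array was left out, and the decrease of Lrig1 without cAMP replicate 2.

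Among 15 tested genes known to respond to ERK, 3 rose, 1 fell and 11 did not pass (median -0.18). Before adjustment, 4 were higher and 4 lower at p below 0.05 by limma. The immediate-early genes Ier2 and Fos rose, Ier2 from 193.3 and 122.2 to 771.5 and 729 (2.17 ± 0.21, adjusted p by limma = 0.000862) and Fos by 1.86 ± 0.16. The feedback inhibitor gene Spry2 rose from 109.4 and 76.9 to 269 and 186.2 (1.15 ± 0.24, adjusted p = 0.0193), and Egr1 fell (-1.33 ± 0.19). Whether any of these changes came through ERK was not tested. Spry4 (139.7 and 154.6 against 94.1 and 92.9) and Etv5 (77.2 and 56.2 against 34.7 and 38.1) were lower on both cAMP arrays and Dusp6 (230.2 and 155.6 against 298.7 and 310.6) higher, and none of these passed. Spry2 was lost when either cAMP array was left out and Egr1 without cAMP replicate 1, while without control replicate 2 the list counted 4 lower genes.

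Of the genes that EGF-like ligands switch on in the ovarian follicle, 5 were tested, 1 rose, 0 fell by limma and 4 did not pass (median 0.64). At an unadjusted p below 0.05, 2 were higher and 0 lower, where 14.9% and 15.2% of all tested named genes were. The one that rose was Tnfaip6, which encodes a hyaluronan-binding protein of the expanding cumulus. Its signal was 25.4 and 18 in control cells against 411.3 and 387 with cAMP, a log2 difference of 3.47 ± 0.19 (adjusted p by limma = 9.5e-05), and it passed in every fit. Ptgs2, the inducible prostaglandin synthase gene, was at background on all 4 arrays, and Has2, a hyaluronan synthase gene, gave 16.8 and 23.2 against 16.7 and 15.5, below the filter. Adamts1 gave 81.9 and 55.1 against 79.6 and 160.7 and Runx1 56.9 and 33.1 against 67.5 and 100.3, and neither passed. Whether Tnfaip6 rose through EGF-like ligands was not tested.

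**Figure D4:**
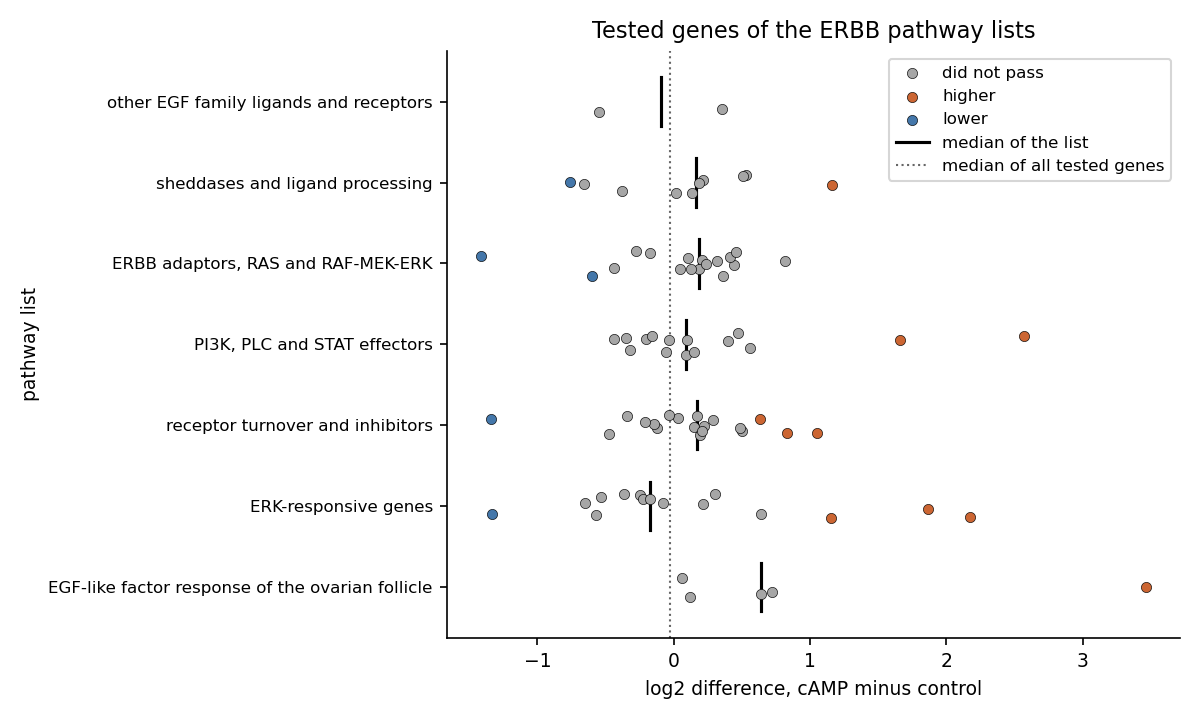
Log2 difference, cAMP minus control, of each tested gene in the 7 pathway lists (orange higher, blue lower, grey did not pass), with each list's median (black bar) and the median of all tested named genes (dotted line). Tnfaip6, at 3.47, and Pak1, at 2.57, lie farthest to the right, and Gab1, at -1.42, farthest to the left.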

How the data were processed

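Total RNA was labelled with biotin and hybridised to one-colour Affymetrix rat arrays. The authors deposited 1 intensity per probe set, on a linear scale, from GCOS and MAS5 as the submitters' processing notes name them, without versions or settings. The mean intensity without the lowest and highest 2% was 124.3 to 125.0 on each array. The array holds 31099 probe sets, 57 of them controls. The platform annotation gives 1 symbol to 20832 probe sets, several to 436 and none to 9831, and 20764 symbols were matched to the RefSeq table of assembly GRCr8, used for names and gene order. No coordinates of probe sets are given, since the files name no build.

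Intensities were turned into log2(signal + 16) with no further normalization. The 18625 probe sets (10035 named genes) whose mean reached the 40th percentile, 5.10 on that scale, were tested. The test was limma 3.58.1 in R 4.3.3 (lmFit, eBayes with an intensity trend, two-sided) with Benjamini-Hochberg adjustment over all of them and a threshold of 0.05, after a test on simulated data. The probe set with the highest mean stood for a gene. Where a group lay at background on every array, the fold is the brighter group's geometric mean over the dimmer group's with values raised to background.

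The members and lists were chosen with earlier results of these data known. All members and all called genes of lists with up to 5 calls in a direction are named (up to 4 by smallest p beyond that). List genes named although they did not pass, or were not tested, were chosen after their values were seen. Alternatives were pseudocounts of 1 and 64, no filter and a 60th percentile filter, quantile normalization, no trend, the replicate block, gene means over probe sets, and leaving out each array. Promoter sequences are from RefSeq, GRCr8.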

Additional observations from a re-analysis of the deposited data

How the results depend on the processing

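The 4 tested members kept their direction in every fit that tested them. The count of lower members, 1 as reported, was 0 with a pseudocount of 1, without the filter, with quantile normalization and with the 60th percentile filter, under which Hbegf and Erbb2 were not tested, and 2 with a pseudocount of 64, without the trend, with the replicate block and with gene means, Erbb2 being the one added. It ranged from 0 to 2 with 1 array left out. Hbegf lost its call with a pseudocount of 1 (-1.48), without the filter (-0.97) and with quantile normalization (-0.95), and ranged from -1.22 to -0.72 with 1 array left out. Its adjusted p by limma over all alternatives ran from 0.0174 to 0.315. Erbb2 passed at -0.40 with a pseudocount of 64 and at -0.74 without the trend, with the replicate block and with gene means, and ranged from -0.81 to -0.67 with 1 array left out, Tgfa from -0.56 to -0.34. Of all probe sets, 1358 were higher and 1191 lower as reported, 873 and 725 without the filter, and 408 to 2419 and 305 to 2371 with 1 array left out, the fewest without cAMP replicate 1 and the most without control replicate 1. Without the filter more probe sets share the adjustment, and other causes were not tested.

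In the lists, shedding genes counted 0 higher and 0 lower both without the filter and without the trend (0 to 2 and 0 to 1 with 1 array left out). The adaptors counted 1 higher with the replicate block (0 to 4 with 1 array left out) and 1 lower without the trend and with gene means (1 to 2). The PI3K and STAT list counted 4 higher with gene means, receptor turnover 1 higher without the filter (0 to 4 higher and 0 to 3 lower with 1 array left out), ERK-responsive genes 0 to 4 lower and the follicle list 1 to 2 higher. Of the 15 named list genes, 6 passed in every fit that tested them. Adam17, Cd9, Sh3kbp1, Spry2 and Tnk2 did not pass without the filter, nor Adam17, Cd9, Nck2 and Tnk2 without the trend, nor Nck2 with gene means. The replicate numbers are shared between groups, but the labels do not say that they mark a shared preparation. The deviations of same-numbered arrays correlated with r = 0.163 across tested probe sets, which are not independent. Under the replicate block Hbegf stood at an adjusted p by limma of 0.0174 and Erbb2 at 0.0454, and 1540 probe sets were higher and 1495 lower. Signal near background limits what can be said of Areg, Ereg, Btc, Nrg1, Egfr and Erbb3.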
